A study of Homo sapiens with 16 samples.

Results

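The LINC transcripts are long noncoding RNAs of genes that lie between protein-coding genes and that carry a systematic symbol, LINC and a number, because no function or host gene gave them another name. In the table of estimated counts from the colon fibroblast line Ccd18-Co, 2225 symbols had this form, 1 further symbol of the form being left out, and 120 of them (5.39%) had a mean of at least 20 estimated counts over the 16 libraries and are described here. These 120 transcripts held 84.3% of all LINC counts. Of the LINC symbols below the minimum, 931 stood at 0 in every library, 687 had a mean under 1 and 487 had a mean from 1 to under 20. They were chosen by the mean estimated count over all libraries, whatever the group, and their mean level is therefore no result. The 3 transcripts just inside the minimum were LINC02615 (mean estimated count 20.4), LINC02256 (20.2) and LINC00886 (20.1), and the 3 just outside were LINC01694 (19.9), LINC01761 (19.3) and LINC00304 (19.2).

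Long noncoding RNAs are transcribed and often spliced and polyadenylated like messenger RNAs but are not known to encode a protein. Some act in the nucleus on chromatin or on transcription of nearby genes, others bind RNAs or proteins, and for many LINC genes no role is established. They are as a rule less abundant and more restricted to certain tissues than coding transcripts, and their transcription, like that of coding genes, is tied to the acetylation and methylation of histones.

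The study asked whether compounds acting on chromatin change a lasting cytokine-induced state of gut fibroblasts. Ccd18-Co is a fibroblast line of the human colon, so all libraries come from a single line, and the labels do not say whether the 4 libraries of a group were separate cultures. P-values then measure the spread between these libraries, which may be technical. Cells of 3 groups received 3 pulses of a mix of the cytokines IL-1B (0.1 ng/ml), TNF, OSM and IL-17A (each 10 ng/ml). Each pulse lasted 72 h, with 96 h to recover. The same cells rested for 1 week and then had, for 5 days, DMSO (here called vehicle), belinostat at 250 nM, an inhibitor of histone deacetylases, or GSK-J4 at 10 µM, an inhibitor of the demethylases that act on lysine 27 of histone H3. The fourth group, here called unstimulated, had no cytokines. Its sample titles name DMSO, whereas the column names of the count table give no agent for it, so whether these cells had DMSO is uncertain. Doses and library numbers are those of the sample labels, and the study's own text gives another concentration for these compounds and fewer replicates of RNA-seq per group. RNA was taken 2 weeks after the compounds, so the libraries show what remained after their withdrawal, and each group held 4 libraries.

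Libraries held 14.4 to 19.5 M estimated counts, with a mean of 16.4 M under belinostat and 18.6 M in vehicle. The 9 fibroblast markers examined had mean normalized counts from 12200 (THY1) to 155000 (DCN), whereas 5 epithelial markers ran from 0 to 6.99 (CDH1), 4 immune markers from 0 to 129 (CD14) with PTPRC at 1.92, and 4 endothelial markers from 0.0555 to 24.9 (VWF) with PECAM1 at 3.23. The summed fibroblast markers ranged from 432000 to 515000 under belinostat and from 539000 to 575000 under GSK-J4, and their part in any difference between these groups was not tested. Normalized counts are estimated counts divided by the size factor of the library. In bulk RNA, fewer cells that make a transcript and less of it per cell cannot be told apart.

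The promoters of 4 of the called transcripts are shown to place them by sequence. LINC02982, LINC00963 and LINC00839 differed from vehicle in a comparison, in calls that leaving out single libraries removed, as given below. LINC01082 differed between the compounds and lies in the region of the fibroblast transcription factor gene FOXF1. Each run is the RefSeq window of 300 bases, 250 before and 50 from the annotated start on, on the strand of the gene, with capitals at matches to the motifs searched on both strands. The windows lie on GRCh38.p14 at chr5:997291-997590 (minus strand) for LINC02982, chr9:129488410-129488709 (plus strand) for LINC00963, chr10:42475241-42475540 (plus strand) for LINC00839 and chr16:86195931-86196230 (plus strand) for LINC01082.
LINC02982: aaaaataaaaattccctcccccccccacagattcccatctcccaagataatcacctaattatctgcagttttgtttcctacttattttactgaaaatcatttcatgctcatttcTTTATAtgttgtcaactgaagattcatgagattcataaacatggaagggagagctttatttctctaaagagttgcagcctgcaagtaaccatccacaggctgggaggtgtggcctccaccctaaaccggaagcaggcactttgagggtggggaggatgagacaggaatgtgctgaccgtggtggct
LINC00963: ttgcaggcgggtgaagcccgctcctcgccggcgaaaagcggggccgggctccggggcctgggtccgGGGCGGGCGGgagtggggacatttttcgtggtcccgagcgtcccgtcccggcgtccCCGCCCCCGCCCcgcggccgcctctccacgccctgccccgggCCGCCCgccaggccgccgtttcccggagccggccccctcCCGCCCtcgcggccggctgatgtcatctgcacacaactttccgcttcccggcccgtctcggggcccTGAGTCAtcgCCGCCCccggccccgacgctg
LINC00839: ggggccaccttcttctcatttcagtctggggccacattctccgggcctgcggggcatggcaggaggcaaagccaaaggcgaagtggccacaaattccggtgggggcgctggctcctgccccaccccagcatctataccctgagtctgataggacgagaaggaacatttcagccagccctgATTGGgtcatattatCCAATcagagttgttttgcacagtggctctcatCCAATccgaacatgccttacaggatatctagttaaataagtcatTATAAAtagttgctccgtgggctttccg
LINC01082: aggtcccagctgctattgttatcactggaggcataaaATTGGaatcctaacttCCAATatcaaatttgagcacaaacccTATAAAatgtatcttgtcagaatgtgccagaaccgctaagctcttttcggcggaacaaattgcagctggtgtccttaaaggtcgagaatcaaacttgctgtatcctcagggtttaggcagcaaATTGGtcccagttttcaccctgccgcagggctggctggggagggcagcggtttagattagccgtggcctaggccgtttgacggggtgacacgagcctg

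The motifs were the GC box GGGCGG, the TATA box TATAAA, the CCAAT box CCAAT, the AP-1 motif TGACTCA, the cyclic AMP response element TGACGTCA and the E-box CACGTG. The LINC00963 window held 7 GC boxes, of which 1 pair overlapped, and an AP-1 match 20 bases into the transcript, with 43 CpG dinucleotides and 78% G or C. The LINC02982 window had 2 CpG and 44% G or C. Its single match was a TATA box on the opposite strand, starting 136 bases before the start. LINC00839 and LINC01082 each held 1 TATA box and 3 CCAAT boxes, with 9 and 10 CpG. The TATA box of LINC00839 began 23 bases into the transcript and that of LINC01082 171 bases before the start. A match to these letters is a description and not a shown binding site.

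Of the 120 transcripts, 85 had such a window, and their base composition was close to that of all 35116 windows in the table, with a median of 15 against 14 CpG and 59.3% against 58.7% G or C. A GC box was present in 47.1% of them and in 45% of all windows, a CCAAT box in 44.7% and 34.6%, a TATA box in 15.3% and 11.5%, and an AP-1 motif in 8.24% and 4.95%. The cyclic AMP response element stood in 3.53% and 1.85% and the E-box in 7.06% and 7.26%. The AP-1 share rests on 7 of the 85 windows. LINC02532 had no window in the table. LINC02906 and LINC01605, also called against vehicle, lie on chromosome 8 and were left out of the windows shown.

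The reads behind each LINC transcript were few, with a median mean estimated count of 56.4, against 509 for the 12922 symbols with a mean of at least 20. A mean of at least 50 was reached by 69 of them, at least 100 by 35 and at least 500 by 4. By normalized count, which is not corrected for length, the 8 highest were LINC00963 (1134), LINC00667 (732.7), LINC00839 (610.1), LINC01128 (605.0), LINC01278 (366.4), LINC03105 (335.5), LINC00504 (286.6) and LINC01082 (284.9). Long genes collect more reads, so that this order is one of counts, and levels of different transcripts are set side by side per kilobase of annotated exon. On that scale LINC01082 stood at 144.7, LINC00963 at 80.6, LINC00667 at 72.6, LINC00839 at 72.4 and LINC01128 at 33.7. The median was 16.1 over the transcripts with a locus. LINC00674, named after its value was seen, had the highest value at 229 normalized counts per kb. That value divides only 36.65 normalized counts by 160 annotated exon bases, the shortest exon length of all. GENCODE types its locus as a transcribed pseudogene, 68101908 to 68114527, whereas RefSeq gives 68101555 to 68135929. The value may therefore reflect the annotation, which was not tested. Together the 8 took 30.5% to 34.3% of the LINC counts of a library, and LINC00963 alone 7.74% to 9.04%.

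**Figure D1:**
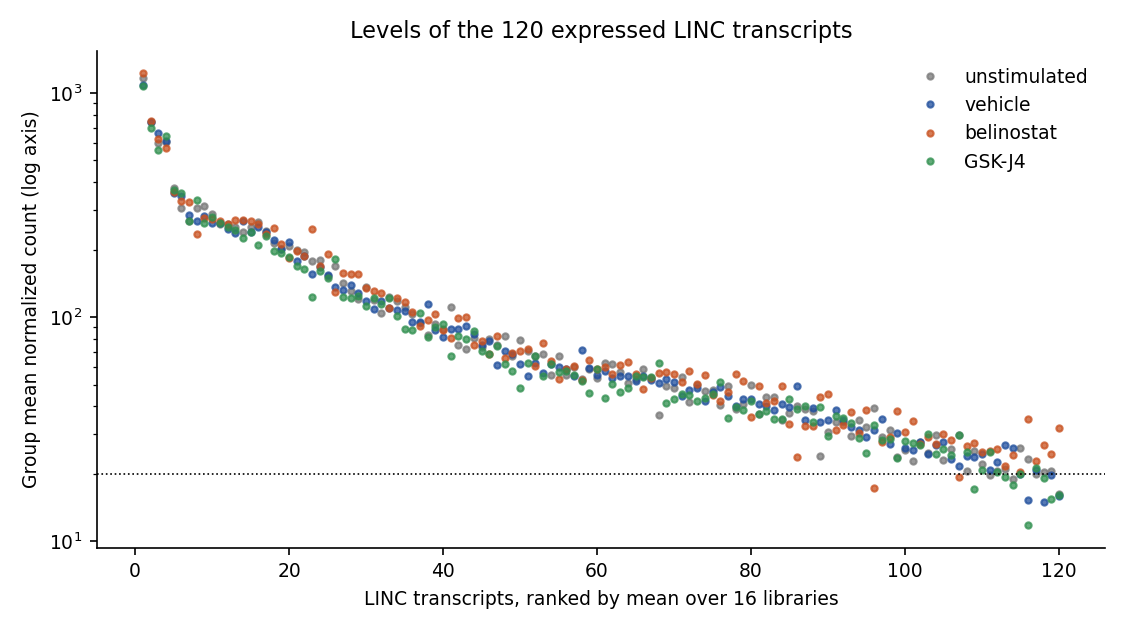
Group mean normalized count on a log axis for each of the 120 LINC transcripts, ranked by the mean over 16 libraries, with 1 point per group of 4 libraries and a dotted line at 20. The 4 group means lie close together for most transcripts, between 1070 and 1221 for the highest, LINC00963.

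A GENCODE v44 locus was found by symbol for 118 of the 120. LINC03104 and LINC03105 were listed in RefSeq alone, on chromosome 21. The median transcript had 5 merged exons over 4627 bases, and 16 had a single exon. The nearest start of a coding gene lay at a median of 48.2 kb. It was within 1 kb for 9 transcripts, 8 of them on the opposite strand, and more than 100 kb away for 33. Spans of 15 overlapped a coding gene, and exons overlapped coding exons on the opposite strand for 7 and on the same strand for 3. Since use of strand in the counting is not stated, reads of such overlapping genes cannot be told apart. Estimated counts also divide reads that several transcripts share. The values were whole numbers in all 16 libraries for 27 of the transcripts and in none for 52, among them LINC00963, LINC01128, LINC03105, LINC00504 and LINC02982, and the standard errors do not cover how such reads were divided.

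Differences between the groups were small for most LINC transcripts. The highest group mean was a median of 1.26 times the lowest, against 1.13 for all symbols with a mean of at least 20. It was 1.5 times or more for 17 and 2 times or more for 5, namely LINC02532 (2.96), LINC01605 (2.28), LINC02906 (2.07), LINC00886 (2.01) and LINC00842 (2.01). Counting noise weighs more on low transcripts, and its part in the wider ratio was not tested. The median coefficient of variation within groups was 16% over the LINC transcripts, from 2.16% to 47.7%. LINC00667, whose exons overlap the coding gene ZBTB14 on the opposite strand of chromosome 18, was steady, with group means of 738.1 ± 42.3 in unstimulated, 741.8 ± 37.7 in vehicle, 751.9 ± 31.1 under belinostat and 699.0 ± 27.2 under GSK-J4 (SD, n = 4). LINC01278 had means from 358.1 in vehicle to 377.3 in unstimulated cells, and the libraries of all groups overlapped.

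The group in which a transcript had its highest mean was belinostat for 62 of the 120, unstimulated for 31, GSK-J4 for 15 and vehicle for 12. The same counts over all symbols were not computed, so these are no result about LINC transcripts in particular. Low symbols as a whole also leaned to belinostat, with 59.5% of those at mean counts from 20 to 50 higher than in vehicle. Summed over the 120, LINC counts per M were 771.4 ± 40.1 in unstimulated, 762.1 ± 4.5 in vehicle, 798.4 ± 34.9 under belinostat and 724.6 ± 36 under GSK-J4 (SD, n = 4). The belinostat libraries stood at 747.8, 802.6, 821.4 and 821.9 and the GSK-J4 libraries at 716.3, 696.0, 709.2 and 777.1. Belinostat replicate 17 lay below every vehicle library and GSK-J4 replicate 24 above every one, so that neither compound was apart from vehicle.

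**Figure D2:**
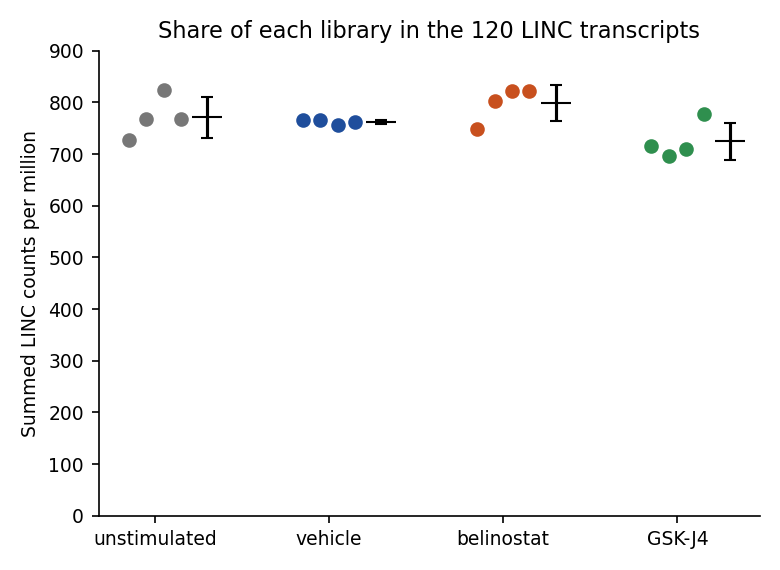
Summed counts per M of the 120 LINC transcripts in each of the 16 libraries (points), with the mean and SD of each group of 4 beside them, on an axis from 0. Vehicle libraries sit between 755.8 and 765.4, and the other groups spread more widely around them.

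A single test over the 4 groups (DESeq2 likelihood ratio test, adjusted p under 0.05 over all symbols) found that 13 LINC transcripts (10.8%) varied, whereas 14.4% of all tested symbols and 16.4% of those with a mean count of at least 20 did. edgeR found 11, against 12.4% of all symbols. GSK-J4 was the lowest group for 7 of the 13 and belinostat the highest for 5, counts for which no share over all symbols was computed. Of the 13, 10 also passed in a comparison of a pair of groups, and LINC01750, LINC00900 and LINC00960 did not and are named after their values were seen. LINC01750, which starts 102 bases from the potassium channel gene KCND3 on the opposite strand, went from 111.3 ± 17.9 in unstimulated to 88.6 ± 12.9 in vehicle, 80.8 ± 6.22 under belinostat and 66.9 ± 12.5 under GSK-J4 (SD, n = 4). Its DESeq2 adjusted p was 0.00351 and its edgeR adjusted p 0.0177. LINC00900 had means of 36.6 ± 5.35 in unstimulated, 50.7 ± 8.67 in vehicle, 56.4 ± 8.07 under belinostat and 62.3 ± 6.53 under GSK-J4 (SD, n = 4). LINC00960 ran from 24.1 ± 5.63 in unstimulated cells to 43.9 ± 3.15 under belinostat (SD, n = 4), with a DESeq2 adjusted p of 0.046 and an edgeR adjusted p of 0.0646. For all 3 the vehicle libraries overlapped the unstimulated ones. The number of transcripts that varied was 8 without GSK-J4 replicate 21 or without GSK-J4 replicate 22, and the share of all symbols was not computed there.

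Vehicle and unstimulated cells were compared to see which LINC transcripts still differed weeks after the cytokine pulses. A single transcript passed the test, LINC02982, which was higher in vehicle. It made up 0.833% of the 120, whereas DESeq2 called 1.74% of all tested symbols, 1.1% higher and 0.634% lower, and 2.04% of those with a mean count of at least 20. edgeR called the same transcript and 1.15% of all symbols. LINC02982 (ENSG00000215246.6, chromosome 5, 987180 to 997342, minus strand, GRCh38) has 2 merged exons. Its normalized counts were 84.9, 88.1, 89.7 and 71.3 in the unstimulated libraries and 103.7, 113.1, 111.8 and 130.0 in vehicle. Every vehicle library was above every unstimulated one, at a log2 fold change of 0.46 with SE 0.14 (DESeq2 adjusted p = 0.0448, edgeR adjusted p = 0.0382). This call was fragile. It was lost on leaving out any 1 library other than vehicle replicate 13 or belinostat replicate 17 and in a fit of the 8 libraries compared, with log2 fold changes from 0.39 to 0.50 and adjusted p from 0.0315 to 0.275 over the alternatives.

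The coding gene whose start was nearest to LINC02982 was NKD2 (ENSG00000145506.14, chromosome 5, 1008802 to 1038943), an antagonist of Wnt signalling, 11.5 kb away on the opposite strand. NKD2 was also higher in vehicle, at 1410 ± 103 against 1162 ± 17.4 normalized counts (SD, n = 4), which makes a log2 fold change of 0.28 with SE 0.07 (DESeq2 adjusted p = 0.00433). Without vehicle replicate 16 it was no longer called, with an adjusted p of 0.0571 at the upper end of a range from 0.000779.

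Among the other LINC transcripts, 56 of the 120 had a positive and 64 a negative log2 fold change, with a median of -0.03 against -0.01 over all tested symbols. Values were apart, with no overlap between the groups, for 6 of the 120 (5%), against 6.93% of all tested symbols and 7.49% of those with a mean count of at least 20. The largest difference not called was that of LINC02532, which stood at 23.3 ± 7.03 in unstimulated and 15.3 ± 0.981 in vehicle (SD, n = 4, log2 fold change -0.61, SE 0.32, DESeq2 adjusted p = 0.586). The 95% interval of the fold change lay within 2-fold in either direction for 115 transcripts and within 1.5-fold for 65. For the remaining transcripts the intervals reached further. The median SE of a log2 fold change was 0.206 for the LINC transcripts and 0.111 for all tested symbols.

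Belinostat was set against vehicle to see which LINC transcripts differed after the deacetylase inhibitor had been withdrawn. LINC02532 and LINC00963 were higher and LINC02906 and LINC01605 lower, so that 4 of the 120 (3.33%) passed. DESeq2 called 6.26% of all tested symbols, 3.12% higher and 3.13% lower, and 6.78% of those with a mean count of at least 20. edgeR called 3 of the 4 and 4.93% of all symbols. LINC02532 and LINC02906 were called in 21 of 21 alternative fits, and LINC00963 and LINC01605 were not. With mean estimated counts of 21.3 and 38.7, LINC02532 and LINC02906 fall outside the set with a mean of at least 50. LINC02532, LINC02906 and LINC01605 had whole values in all 16 libraries.

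LINC02532 (ENSG00000235142.12, chromosome 6, 106705328 to 106788148, minus strand) showed the widest range of the 120. Its normalized counts were 14.3, 15.3, 14.9 and 16.6 in vehicle and 45.8, 37.9, 27.0 and 29.1 under belinostat. The groups did not overlap, and the log2 fold change was 1.20 (SE 0.31, DESeq2 adjusted p = 0.00342, edgeR adjusted p = 0.007). Under the alternatives the adjusted p ran from 0.00214 to 0.0312. Its group means were 34.93 under belinostat, 23.25 in unstimulated, 15.3 in vehicle and 11.8 under GSK-J4. LINC02532 thus reached the minimum of 20 largely through the belinostat libraries. Its differences from vehicle and from GSK-J4 carry that choice. The nearest coding start was that of QRSL1, which encodes a subunit of the mitochondrial glutamyl-tRNA amidotransferase, 158.6 kb away. QRSL1 stood at 450 ± 26.0 under belinostat and 413.4 ± 13.9 in vehicle (SD, n = 4, log2 fold change 0.12, DESeq2 adjusted p = 0.549).

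LINC02906 (ENSG00000279847.3, chromosome 8, 93134095 to 93166850, minus strand) moved the other way. It stood at 61.9, 47.9, 45.6 and 41.5 normalized counts in vehicle and at 21.96, 19.5, 22.7 and 31.1 under belinostat. All belinostat libraries were below all vehicle libraries, at a log2 fold change of -1.04 with SE 0.25 (DESeq2 adjusted p = 0.00098, edgeR adjusted p = 0.00542). The adjusted p ran from 0.000679 to 0.0163 under the alternatives. The nearest coding start was that of TRIQK, 149.2 kb away on the same strand, with a log2 fold change of 0.06 with SE 0.06 (DESeq2 adjusted p = 0.734).

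LINC01605 (ENSG00000253161.7, chromosome 8, 37421341 to 37554183, minus strand) was also lower under belinostat. Its normalized counts were 32.4, 28.8, 27.9 and 35.96 in vehicle and 14.3, 23.2, 15.1 and 16.6 under belinostat. The groups did not overlap, and the log2 fold change was -0.87 (SE 0.29, DESeq2 adjusted p = 0.0497, edgeR adjusted p = 0.052). The call stood at the threshold. It was lost in 13 of 21 alternatives, among them those without unstimulated replicate 1 or 4, any vehicle replicate, belinostat replicate 17, 19 or 20, or GSK-J4 replicate 23 or 24. The log2 fold change without 1 library ran from -1.03 to -0.78 and the adjusted p over the alternatives from 0.0346 to 0.173. The symbol LINC01605 stands on 2 GENCODE IDs, and RefSeq gives it a longer locus, 37403516 to 37599839, so distances depend on the annotation. ZNF703, which encodes a zinc finger repressor of transcription, had the nearest coding start and was lower too. By the GENCODE locus used here ZNF703 lay 141.6 kb away on the opposite strand. It stood at 634.8 ± 51.2 under belinostat and 813.6 ± 78.4 in vehicle (SD, n = 4), which makes a log2 fold change of -0.36 with SE 0.09 (DESeq2 adjusted p = 0.00113).

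LINC00963 (ENSG00000204054.14, chromosome 9, 129476946 to 129513687, plus strand), the LINC transcript of the highest count, had a small difference with a small error. It stood at 1041, 1099, 1147 and 1043 normalized counts in vehicle and at 1178, 1275, 1271 and 1162 under belinostat. Every belinostat library was above every vehicle library, at a log2 fold change of 0.17 with SE 0.06 (DESeq2 adjusted p = 0.0359, edgeR adjusted p = 0.0472). The call was lost without unstimulated replicate 4, vehicle replicate 13, 14 or 16, or belinostat replicate 18 or 19 and in a fit of the 8 libraries compared. Over the alternatives the log2 fold change ran from 0.15 to 0.20 and the adjusted p from 0.0194 to 0.171. The RefSeq start used for the promoter window lies inside the GENCODE locus. NTMT1, an N-terminal methyltransferase gene and the nearest coding start at 131.9 kb, had a log2 fold change of -0.10 with SE 0.10 (DESeq2 adjusted p = 0.744).

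**Figure D3:**
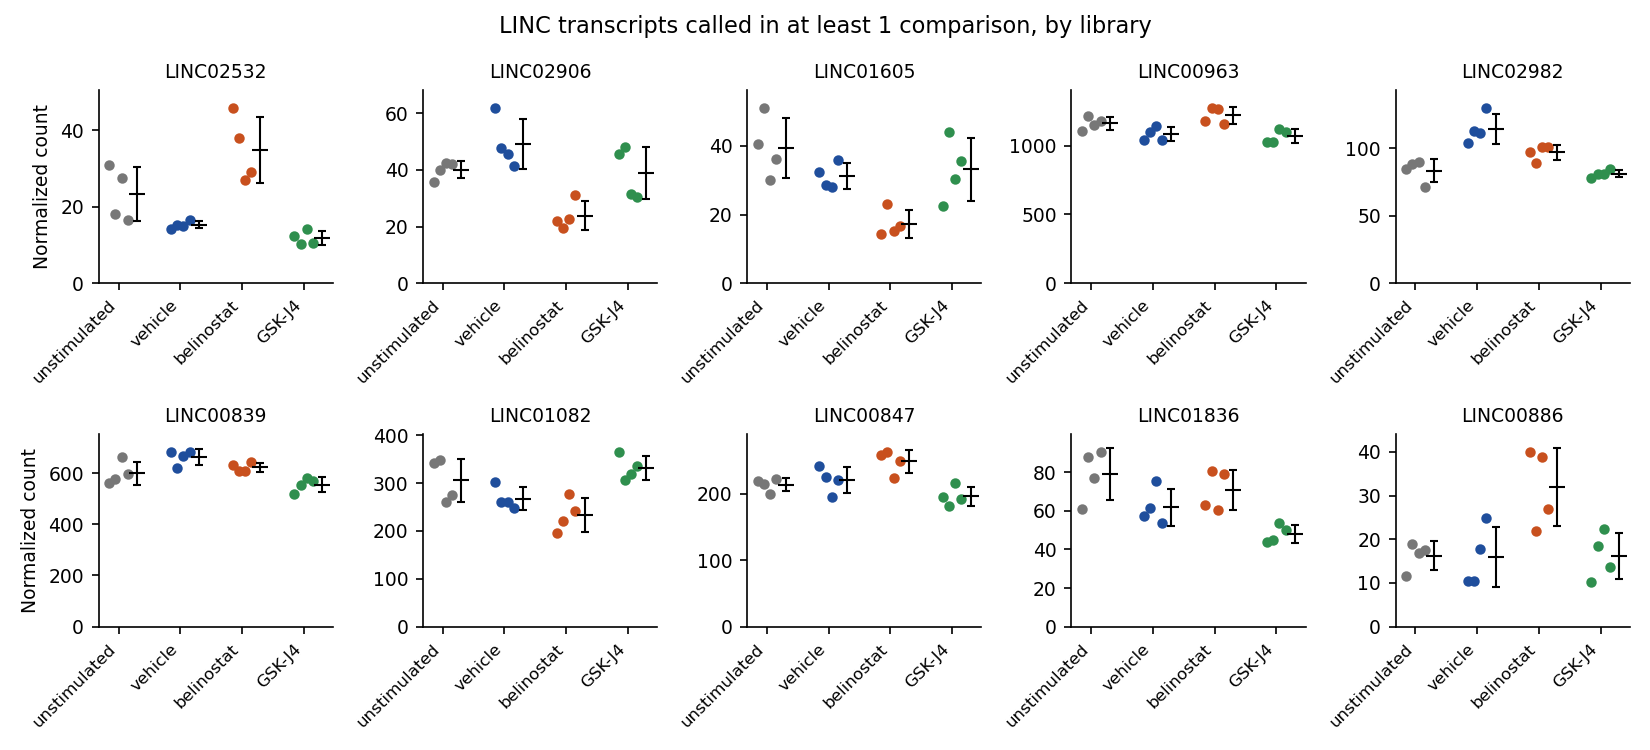
Normalized count of each of the 10 LINC transcripts called in at least 1 comparison, 1 panel each, with the 4 libraries of each group as points, the mean ± SD beside them and each axis starting at 0. LINC02532 is highest and LINC02906 and LINC01605 are lowest under belinostat, and LINC02982 is highest in vehicle.

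LINC00886 was the next transcript in order of p. It stood at 10.5, 10.5, 17.7 and 24.9 in vehicle and 40.1, 21.98, 38.8 and 27.0 under belinostat. The groups overlapped, and its log2 fold change of 1.01 (SE 0.35) had a DESeq2 adjusted p of 0.0584 and an edgeR adjusted p of 0.0744. It was called without vehicle replicate 16, without belinostat replicate 18 and among symbols with a mean count of at least 20 (adjusted p from 0.0157 to 0.234 over the alternatives). LINC00842, named after its values were seen, had a still wider spread, with 178.0, 205.1, 164.9 and 74.7 in vehicle and 119.3, 297.9, 294.5 and 277.2 under belinostat. Its log2 fold change of 0.67 with SE 0.37 (DESeq2 adjusted p = 0.381) was called without belinostat replicate 17, the library with the lowest LINC sum of that group.

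As a set, 85 of the 120 LINC transcripts had a positive log2 fold change under belinostat, with a median of 0.09 against 0.003 over all tested symbols. The median ran from 0.07 to 0.14 under the alternatives. Low symbols as a whole leaned the same way, so the comparison was repeated by level. At mean counts from 20 to 50, 68.6% of 51 LINC transcripts were positive against 59.5% of 1175 symbols. From 50 to 200 it was 74% of 50 against 52% of 2342, and from 200 on 68.4% of 19 against 48.4% of 9405. The medians in these bands were 0.12, 0.10 and 0.03 for the LINC transcripts and 0.07, 0.01 and 0 for all symbols of the band. These are descriptions of the same libraries and were not tested. The belinostat libraries had fewer counts than the vehicle libraries, 14.4 to 18.3 M against 18.4 to 18.8 M, and the part of depth in this lean was not tested. Libraries did not overlap for 13 of the 120 (10.8%), against 11.4% of all tested symbols and 12.1% of those with a mean count of at least 20.

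**Figure D4:**
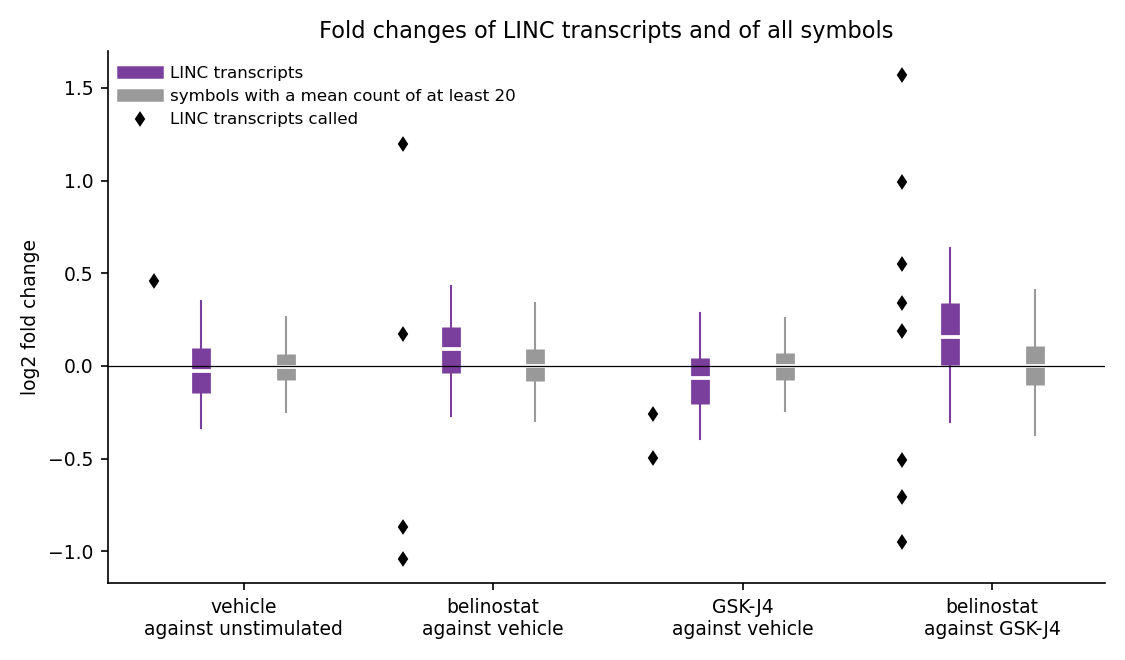
log2 fold changes in 4 comparisons for the 120 LINC transcripts and for the 12918 symbols with a mean count of at least 20, as the median (white line), the middle 50% (bar) and the range from the 5th to the 95th percentile (line), with called LINC transcripts as diamonds. The LINC median is 0.09 for belinostat against vehicle and 0.16 for belinostat against GSK-J4.

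GSK-J4 was set against vehicle in the same way. LINC02982 and LINC00839 were lower under GSK-J4, 2 of the 120 (1.67%). DESeq2 called 1.92% of all tested symbols, 1.1% higher and 0.818% lower, and 1.95% of those with a mean count of at least 20. edgeR called LINC02982 alone of the 120 and 0.631% of all symbols. LINC02982 stood at 78.3, 80.9, 81.3 and 84.9 normalized counts under GSK-J4, all below the vehicle values given above and close to the unstimulated ones. The log2 fold change was -0.50 (SE 0.14, DESeq2 adjusted p = 0.0229, edgeR adjusted p = 0.0342). This difference rests on the same vehicle libraries as its higher level in vehicle than in unstimulated cells, so the pair of calls are not independent. The call was lost without vehicle replicate 14, 15 or 16 or without any 1 GSK-J4 library, with log2 fold changes from -0.54 to -0.43 and adjusted p from 0.0178 to 0.163. NKD2 stood at 1365 ± 100 under GSK-J4 (SD, n = 4), which makes a log2 fold change of -0.05 from vehicle (SE 0.07, DESeq2 adjusted p = 0.917). Under belinostat NKD2 was lower than in vehicle, at 883.6 ± 58.7 (SD, n = 4, log2 fold change -0.68, SE 0.07, DESeq2 adjusted p = 1.21e-19), while LINC02982 had a log2 fold change of -0.24 with SE 0.13 (adjusted p = 0.401).

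LINC00839 (ENSG00000185904.12, chromosome 10, 42475480 to 42495337, plus strand), the third by normalized count, stood at 684.3, 618.0, 666.9 and 683.3 normalized counts in vehicle and at 517.7, 551.9, 581.1 and 570.2 under GSK-J4. The groups did not overlap, at a log2 fold change of -0.26 with SE 0.07 (DESeq2 adjusted p = 0.0128), and edgeR gave an adjusted p of 0.0524. The call was lost without vehicle replicate 13, 15 or 16 and without GSK-J4 replicate 21 or 22. It came with log2 fold changes from -0.29 to -0.22 and adjusted p over the alternatives from 0.00458 to 0.112. ZNF33B, a zinc finger gene with the nearest coding start at 163.1 kb, had a log2 fold change of -0.12 with SE 0.08 (DESeq2 adjusted p = 0.679).

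Under GSK-J4 45 of the 120 LINC transcripts had a positive and 75 a negative log2 fold change from vehicle, with a median of -0.07 against -0.002 over all tested symbols and a range from -0.10 to -0.03 under the alternatives. In the bands from 20 to 50, from 50 to 200 and from 200 on, 41.2%, 32% and 42.1% of the LINC transcripts were positive, against 51.7%, 51.1% and 48.3% of the symbols. Libraries did not overlap for 9 of the 120 (7.5%), against 10% of all tested symbols and 10.2% of those with a mean count of at least 20.

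Belinostat and GSK-J4 were compared with each other at their single doses, 250 nM and 10 µM, which differ. It shares the belinostat libraries with the comparison of belinostat against vehicle and the GSK-J4 libraries with that of GSK-J4 against vehicle, so its values are not independent of theirs. It held the most LINC calls, with 8 of the 120 (6.67%), 5 higher and 3 lower under belinostat. DESeq2 called 12.2% of all tested symbols, 6.18% higher and 6.01% lower, and 13.6% of those with a mean count of at least 20. edgeR called 10, the same 8 among them, and 11.3% of all symbols. Of the 8, LINC02532, LINC00963, LINC02906 and LINC01605 are those called against vehicle on the same belinostat libraries. LINC02532 stood at 12.2, 10.2, 14.2 and 10.5 under GSK-J4, below every belinostat library, at a log2 fold change of 1.57 with SE 0.33 (DESeq2 adjusted p = 5.13e-05, edgeR adjusted p = 0.00051). LINC00963 stood at 1026, 1028, 1124 and 1103 under GSK-J4, also below every belinostat library, at a log2 fold change of 0.19 with SE 0.06 (DESeq2 adjusted p = 0.00997). LINC01605 (-0.95, SE 0.29) and LINC02906 (-0.70, SE 0.25) had DESeq2 adjusted p of 0.0144 and 0.0468 and overlapping libraries. The call of LINC00963 was lost without belinostat replicate 18 or 19 or GSK-J4 replicate 21 or 22 (log2 fold change 0.17 to 0.21, adjusted p from 0.00399 to 0.0637 over the alternatives), and that of LINC01605 without belinostat replicate 17 or 19 or GSK-J4 replicate 22 and in that 8-library fit (-1.11 to -0.78, adjusted p from 0.00476 to 0.109). LINC02906 lost its call in 12 of 21 alternatives, including library size factors and the omission of GSK-J4 replicate 21 or 22, belinostat replicate 17, 18 or 19, vehicle replicate 14 or 15, or unstimulated replicate 2, 3 or 4, with a log2 fold change from -0.86 to -0.59 and adjusted p from 0.0287 to 0.203.

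LINC01082 (ENSG00000269186.4, chromosome 16, 86195954 to 86199937, plus strand), a spliced transcript with whole values in all libraries, was lower under belinostat than under GSK-J4. Its normalized counts were 195.7, 219.8, 278.3 and 240.9 under belinostat and 366.1, 307.2, 320.0 and 335.4 under GSK-J4. The groups did not overlap, at a log2 fold change of -0.51 with SE 0.12 (DESeq2 adjusted p = 0.000849, edgeR adjusted p = 0.00732), and the call held under every alternative tried, with adjusted p from 7.22e-05 to 0.0106. Vehicle lay between them at 267.6 ± 23.5 (SD, n = 4), and neither compound was called against it, with log2 fold changes of -0.20 (SE 0.13) for belinostat and 0.31 (SE 0.12) for GSK-J4. LINC01082 lies between IRF8, an interferon regulatory factor gene whose start was 296.8 kb away, and FOXF1, a transcription factor gene of gut and lung mesenchyme. IRF8 stood at 20.7 ± 10.8 under belinostat and 29.5 ± 5.55 under GSK-J4 (SD, n = 4), which makes a log2 fold change of -0.52 with SE 0.35 (DESeq2 adjusted p = 0.42). Other transcripts of this region, named after their values were seen, had other values. LINC01081, the next LINC gene on this side and on the opposite strand, had a log2 fold change of 0.20 with SE 0.15 (DESeq2 adjusted p = 0.482), FOXF1 one of 0.15 (SE 0.07, adjusted p = 0.139), and FENDRR, a noncoding RNA transcribed away from FOXF1, one of 0.26 (SE 0.05, adjusted p = 9.99e-06). FOXF1 was called without belinostat replicate 19 (adjusted p = 0.0417).

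The 3 remaining calls were LINC00847, LINC01836 and LINC00886, all higher under belinostat. LINC00847 stood at 257.8, 263.8, 224.4 and 250.2 under belinostat and 195.3, 182.3, 216.4 and 192.9 under GSK-J4, without overlap, at a log2 fold change of 0.34 with SE 0.10 (DESeq2 adjusted p = 0.00861), and the call was lost without GSK-J4 replicate 22 (adjusted p from 0.00455 to 0.0576 over the alternatives). LINC01836 stood at 63.0, 80.6, 60.4 and 78.9 under belinostat and 43.7, 45.05, 53.9 and 50.3 under GSK-J4, at a log2 fold change of 0.55 with SE 0.19 (DESeq2 adjusted p = 0.041). LINC00886 stood at 10.2, 18.4, 22.4 and 13.6 under GSK-J4, overlapping the belinostat libraries given above, at a log2 fold change of 0.99 with SE 0.35 (DESeq2 adjusted p = 0.0435). Its group means were 32.0 under belinostat, 16.3 in unstimulated, 15.9 in vehicle and 16.1 under GSK-J4, so that it reached the minimum of 20 through the belinostat libraries alone and its call carries that choice. LINC01836 lost its call in 8 of 21 alternatives (0.48 to 0.61, adjusted p from 0.0295 to 0.145), namely without vehicle replicate 14, belinostat replicate 18 or 20 or any 1 GSK-J4 library, or in a fit of 8 libraries. LINC00886 lost it in 11 (0.82 to 1.19, adjusted p from 0.0282 to 0.165), among them those without unstimulated replicate 2, 3 or 4, vehicle replicate 15, belinostat replicate 17, 19 or 20, or GSK-J4 replicate 21, 22 or 24. Without GSK-J4 replicate 22 there were 3 calls in all, and the share of all symbols called was not computed there. Of the 10 LINC transcripts called in any comparison, LINC02532, LINC01605 and LINC00886 had a group mean under the minimum of 20.

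Over all 120, 90 had a higher level under belinostat than under GSK-J4, with a median log2 fold change of 0.16 against 0.003 over all tested symbols and a range from 0.14 to 0.19 under the alternatives. In the 3 bands of level, 74.5%, 76% and 73.7% of the LINC transcripts were positive, against 55.6%, 51.4% and 48.8% of the symbols. The libraries did not overlap for 22 (18.3%), against 17% of all tested symbols and 18.5% of those with a mean count of at least 20. Depth in these groups was 14.4 to 18.3 M under belinostat and 16.7 to 17.5 M under GSK-J4, and its part was not tested.

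The coding genes nearest to the LINC transcripts numbered 115, since some were shared. DESeq2 called 4 of 97 tested in vehicle against unstimulated, 8 of 90 in belinostat against vehicle, 2 of 87 in GSK-J4 against vehicle and 12 of 91 in belinostat against GSK-J4. These shares were 4.12%, 8.89%, 2.3% and 13.2%. They stand beside 1.74%, 6.26%, 1.92% and 12.2% of all tested symbols. Among symbols with a mean count of at least 20 the shares were 2.04%, 6.78%, 1.95% and 13.6%, but the coding genes had no such minimum. In each of the first, second and last of these comparisons 1 called LINC transcript had a called neighbour, LINC02982 with NKD2 and then LINC01605 with ZNF703. In other pairs a neighbour moved and the LINC transcript did not pass. In belinostat against vehicle 4 of the called neighbours were higher and 4 lower, and the examples given below for that comparison are all higher. IRF8 was lower in vehicle than in unstimulated cells, with a log2 fold change of -1.68 (DESeq2 adjusted p = 7.97e-05, SE 0.33), a call kept under every alternative tried, while LINC01082 had a log2 fold change of -0.19 (SE 0.12, adjusted p = 0.751). SAMD11, whose start lies 98.8 kb from that of LINC01128, rose under belinostat by 1.63 on the log2 scale with SE 0.17 (DESeq2 adjusted p = 4.58e-18), and LINC01128 had a log2 fold change of -0.12 with SE 0.07 (adjusted p = 0.433). ID2, an inhibitor of DNA binding by helix-loop-helix factors, rose by 0.81 (SE 0.12), and LINC01814 at 85.9 kb had a log2 fold change of -0.10 (SE 0.37). PGRMC2 rose by 0.30 (SE 0.05, adjusted p = 1.83e-08). LINC02615, which starts 3.9 kb away on the opposite strand, had a log2 fold change of 0.84 with SE 0.34 (adjusted p = 0.149). It was called without vehicle replicate 16 (adjusted p = 0.0413). Its group means were 26.9 under belinostat, 20.4 in unstimulated, 19.2 under GSK-J4 and 15.0 in vehicle. LINC02615 thus reached the minimum of 20 largely through the belinostat libraries, and its difference carries that choice. IRF8, SAMD11, ID2 and PGRMC2 were named after their values were seen.

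**Figure D5:**
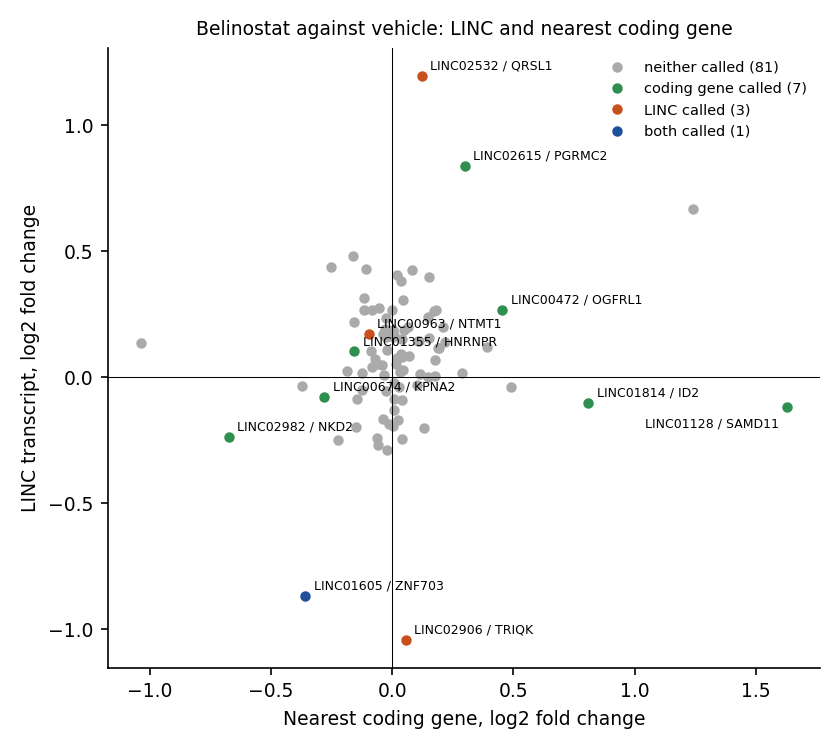
log2 fold change of each LINC transcript (vertical axis) against that of its nearest coding gene (horizontal axis) for belinostat against vehicle, 1 point per pair with both tested by DESeq2 and colours for which of them was called. Both were called in 1 pair, the LINC transcript alone in 3, the coding gene alone in 7 and neither in 81.

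Long noncoding RNAs with other names were examined beside them. Many of the 46 chosen have far higher counts than the LINC transcripts (NORAD stood at 15120 normalized counts), so the shares called are not like with like. DESeq2 called 4 of 40 tested (10%) in belinostat against vehicle, against 6.26% of all tested symbols and the 6.78% given above. FENDRR (0.22, SE 0.05), OIP5-AS1 (0.25, SE 0.06) and NORAD (0.11, SE 0.04), a cytoplasmic RNA that binds Pumilio proteins, were higher, and MIR4435-2HG fell by 0.28 on the log2 scale (SE 0.07). The call of NORAD was lost in 8 of 21 alternatives, by edgeR, with library size factors, in the 8-library fit and without vehicle replicate 13, 14 or 16 or belinostat replicate 17 or 18 (adjusted p up to 0.17). In GSK-J4 against vehicle 2 of 38 (5.26%) were called, MIR503HG (0.60, SE 0.18) and CARMN (0.43, SE 0.11), a smooth muscle RNA that hosts microRNAs. Both were higher, the former with overlapping libraries. edgeR called neither, and the DESeq2 calls were lost in 14 and 4 of 21 alternatives, among them for CARMN those leaving out vehicle replicate 14, vehicle replicate 15 or GSK-J4 replicate 24 (adjusted p up to 0.109). In vehicle against unstimulated DESeq2 called 0 of 43, with 2 at an unadjusted p under 0.05 and 0 by edgeR. In belinostat against GSK-J4 7 of 42 (16.7%) were called, beside 12.2% of all tested symbols and 13.6% of those with a mean count of at least 20. SNHG14, NORAD, OIP5-AS1 and FENDRR were higher and SNHG3, HOTAIRM1 and CARMN lower under belinostat. The calls of SNHG3 and HOTAIRM1 were each lost in 4 of 21 alternatives (adjusted p up to 0.125 and 0.153).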

How the data were processed

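RNA of 16 libraries was measured by RNA-seq. Per the study's methods and the submitters' processing notes, the authors checked reads with FastQC 0.11.9 and MultiQC 1.14 and quantified them with kallisto 0.48.0 (hg38). The authors deposited estimated counts per gene symbol, not scaled to library size, and 28% of the values had decimals. The transcriptome release is not given in the sources used here. The unused sample columns numbered 0.

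Estimated counts were rounded. The main test was DESeq2 1.42.0 (R 4.3.3) with group alone in the model, fitted once to all 40663 symbols in 16 libraries. Calls were made at an adjusted p (Benjamini-Hochberg, over the whole table) under 0.05, and all 120 LINC transcripts were tested in each contrast. The alternatives were edgeR 4.0.16 (quasi-likelihood), DESeq2 with trimmed mean (TMM) factors, DESeq2 with library size factors, and filters at mean counts of 20 and 50. Fits of 8 libraries and leaving out each library were the others. The filter at 50 changed only which transcripts were counted, so fold changes were recomputed in 21 alternatives. Intervals are 95% Wald intervals. Values were called whole within 0.01. Scripts were tested on simulated data.

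The LINC transcripts and lists were chosen with earlier results of these data known. Named were the 8 highest by normalized count, up to 8 called in each direction against vehicle or unstimulated cells, up to 5 in each direction between the compounds, 3 on either side of the minimum of 20, the coding gene whose start was nearest to a transcript called against vehicle or unstimulated cells, and up to 5 called of 46 other noncoding RNAs in each of those comparisons. Symbols outside these rules were named after their values were seen. Loci and starts are those of GENCODE v44 on GRCh38, matched by symbol. Promoter windows are from RefSeq (GRCh38.p14).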

Additional observations from a re-analysis of the deposited data

Results flagged for a closer look

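LINC00842 stood at 119.3 normalized counts in belinostat replicate 17, whereas the other 3 belinostat libraries stood at 277.2, 294.5 and 297.9. The gap is a larger part of the range of the group than Dixon's 95% critical value for 4 samples allows. In the other groups LINC00842 ran from 97.5 to 237.2 in unstimulated cells, from 74.7 to 205.1 in vehicle and from 111.9 to 140.2 under GSK-J4. The check covered 19 LINC transcripts in 4 groups each, 76 groups in all, and chance alone marks about 1 group in 20. Its estimated counts were whole numbers in no library. The cause was not tested.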

How the results depend on the processing

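Leaving out 1 library at a time gave 0 to 1 LINC calls in vehicle against unstimulated, 2 to 4 in belinostat against vehicle, 0 to 3 in GSK-J4 against vehicle, 3 to 10 in belinostat against GSK-J4 and 8 to 13 over the 4 groups. A fit of only the 8 libraries compared gave 0, 2 and 5 calls in vehicle against unstimulated, belinostat against vehicle and belinostat against GSK-J4. Among transcripts with a mean count of at least 50 there was 1 call in belinostat against vehicle, 4 in belinostat against GSK-J4 and 8 over the 4 groups, by construction from 69 transcripts. edgeR gave 1 call in GSK-J4 against vehicle, where it called 0.631% of all symbols. For the other settings the share of all symbols called was not computed. The counts of LINC calls in them are therefore no result about LINC transcripts in particular. Apart from that construction the cause was not tested. Of 55 named fold changes recomputed in these settings, 1 changed sign, that of LINC01814 in belinostat against vehicle, which ran from -0.186 to 0.0095 on leaving out 1 library and was positive without vehicle replicate 14. It was called in none of them. In belinostat against vehicle LINC02532 and LINC02906, and in belinostat against GSK-J4 LINC02532 and LINC01082, passed in 21 of 21 alternatives. Counts near the minimum of 20 limit precision, and the 95% intervals of many LINC transcripts reached past 1.5-fold. No paired analysis was possible because the groups compared share no replicate numbers.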
